A study of Drosophila melanogaster with 87 samples.

Results

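The Dscam, neuroligin and neurexin genes of Drosophila encode adhesion molecules that neurons use to recognise their partners and to build synapses. Dscams are immunoglobulin receptors that let sister branches and neighbouring axons repel each other, and Dscam1 is among the most diversely spliced genes known. Neurexins sit on the presynaptic membrane and bind neuroligins on the postsynaptic side, while Nrx-IV, despite its name, is a relative of the vertebrate Caspr proteins and a component of the septate junctions of glia and epithelia. N6-methyladenosine (m6A) is a mark that the Mettl3 methyltransferase places on mRNA and that reader proteins such as nuclear Ythdc1 bind. The 10 genes described here were Dscam1, Dscam2, Dscam3, Dscam4, Nlg1, Nlg2, Nlg3, Nlg4, Nrx-1 and Nrx-IV, taken by name as the listed members of the 3 families out of 17562 genes counted.

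All flies were male progeny of the DaGal4 driver from crosses at 25 °C, collected 1 to 2 days after eclosion by the labels. The methods give a later age for flies in HS experiments, so the age at treatment is uncertain. DaGal4 is expressed throughout the animal, so each RNAi acted in all tissues. The driver was crossed to Mettl3 RNAi, Ythdc RNAi or control RNAi lines, and each RNAi was represented by a single line. Heat shock (HS) lasted 30 min at 38.5 °C, and some flies then recovered for 6 h or 24 h. The 87 libraries comprised 47 of dissected brains and 40 of heads. In the Mettl3 brain experiment there were 6 basal and 6 HS libraries per genotype, 3 Mettl3 RNAi and 2 control libraries at 6 h, and 3 per genotype at 24 h. The Ythdc brain experiment had 3 libraries in each of 4 groups, Ythdc RNAi or control RNAi, HS or basal. The heads, pooled 200 per sample, were Mettl3 RNAi or control RNAi, HS or basal, and polyA+ RNA of each pool gave an m6A immunoprecipitate (IP) and an input library. A Synaptic Systems antibody (SYS) was used on 2 pools per group and a New England Biolabs antibody (NEB) on 3 pools. The titles of the basal Mettl3 RNAi SYS libraries name the SYS antibody although their antibody field says that none was used, and the titles were followed. No brain IP was analysed here, so enrichment in IP refers to heads and expression mainly to brains.

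The brain libraries held 19356178 to 65901563 counts and the head inputs 12164686 to 17710227. In the Mettl3 brain experiment, replicates 1 to 3 with the recovery libraries held a median of 23185851 counts, and replicates 4 to 6 held 41172623. The main fits that pool these 2 sets carried no term for them. SYS IP libraries held 12035644 to 19583593 counts, while NEB IP libraries held 1318964 to 10525659. The shallow NEB libraries were unevenly placed, with 7982176, 1487212 and 1484624 counts in basal Mettl3 RNAi pools 1 to 3, against 10525659, 10250218 and 6044973 in control pools. Brains expressed all 5 neuronal markers checked (elav, nSyb, Syt1, brp and para) and all 5 glial markers (repo, moody, alrm, Gs2 and nrv2), none at 0, with summed levels in basal control brains of 5756 to 9063 CPM and 3508 to 4317 CPM. CPM are a gene's counts relative to the scaled total of its library, the usual unit for such tables. All 5 photoreceptor markers (ninaE, ninaC, trp, Arr1 and Arr2) were also present in these brains, at a summed 23581 to 38907 CPM. In these bulk samples, fewer cells of a type and less RNA per cell cannot be told apart. Basal control brain replicate 2 stood apart from its group, with 14% of its counts on the 476 genes with at least 8000 exon bases, against 17% to 19.4% in the other basal control brains. In the Ythdc experiment basal control replicate 8 had 6.90% on these genes, against 10.3% and 10.4% in replicates 7 and 9. Dscam1, Dscam2, Dscam3 and Nrx-1 are themselves above this length, and results that rest on either library are given with and without it.

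The RNAi lowered its target in each experiment. Mettl3 was at 0.612 to 1.12 CPM in basal Mettl3 RNAi brains and 2.22 to 2.98 CPM in basal control brains, and at 0.111 to 0.494 CPM after HS, against 1.70 to 2.16 CPM in control brains after HS. In basal head inputs it was at 1.53 to 3.60 CPM in Mettl3 RNAi and 6.45 to 7.60 CPM in control. Ythdc1 was at 32.7 to 33.4 CPM in basal Ythdc RNAi brains and 109 to 180 CPM in basal control brains of that experiment. Ythdc1 was also low in basal Mettl3 RNAi brains, at 106 to 142 CPM, against 170 to 228 CPM in control.

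The members differ in length, and their 5′UTRs, in the transcripts with the longest coding part, ran from 336 to 1207 bases. The largest transcription unit is Nlg3 (FBgn0083963, chr3R:7570281-7639434, minus strand of dm6, 69154 bases), and the shortest is Nrx-IV (FBgn0013997, chr3L:12146519-12156990, plus strand, 10472 bases). To show where candidate m6A letters fall, the 5′UTR of the transcript with the longest coding part was searched on the RNA strand for the mammalian consensus core GGACT (with U for T in RNA) and for AAACA, a pentamer described around fly 5′UTR m6A. Over the last 200 spliced bases before the start codon, Nrx-1 alone among the members held GGACT, a pentamer found in that window of 10.1% of 4689 genes. AAACA was in the window of 7 members (Dscam1, Dscam2, Dscam3, Dscam4, Nlg1, Nlg3 and Nrx-1), against 48.5% of the 4689 genes, and was most frequent in Dscam3 and Dscam4 with 4 copies each. The windows of Nlg2, Nlg4 and Nrx-IV held neither, although Nlg2 and Nlg4 had AAACA farther upstream in the 5′UTR. Upstream of the window, Dscam2, Dscam4 and Nlg3 also held 1 GGACT each. These are matches of letters and not mapped m6A sites. The other strand was not searched, since the mark is on the RNA, and with these letters the 2 pentamers cannot overlap each other.

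Matches are printed for Nrx-1, which has both pentamers in the window, and for Nlg4 and Nlg2, the members with the highest IP over input ratios. They are also printed for other genes that passed a test of Mettl3 dependence (Nlg3, Nlg1, Dscam2, Dscam4) and for Dscam3, which passed none. No match is printed for Dscam1, which also passed and holds 2 copies of AAACA in its window. Each printed match is the one nearest the start codon that has 10 flanking bases on both sides within 1 exon. It is a 25-base stretch of 5′UTR exon from dm6, written 5′ to 3′ on the gene's strand as DNA, with the pentamer in capitals. The Nrx-1 matches start 129 and 110 bases before the start codon (chr3R:22470346-22470370 and chr3R:22470365-22470389, plus strand). Those of Nlg4 (chr3R:20206401-20206425, plus strand) and Nlg2 (chr2L:6875414-6875438, plus strand) start 479 and 448 bases before it. Those of Nlg3 (chr3R:7603779-7603803, minus strand) and Nlg1 (chr3R:7662463-7662487, plus strand) start 46 and 124 bases before it. Those of Dscam2 (chr3L:7189319-7189343, minus strand), Dscam4 (chr3L:8248848-8248872, plus strand) and Dscam3 (chr3R:17498395-17498419, minus strand) start 18, 42 and 104 bases before it.
Nrx-1 GGACT: tcgcgctcaaGGACTggaatacgcg
Nrx-1 AAACA: tacgcgacagAAACAcagcgagtga
Nlg4 AAACA: attcgcttcaAAACAtgaaatgaaa
Nlg2 AAACA: gtgcccgaacAAACAacaccaacaa
Nlg3 AAACA: gttatcgaaaAAACAacgacaacat
Nlg1 AAACA: actggaaagcAAACAcgagcggaat
Dscam2 AAACA: atcagaatcaAAACAgaagccggta
Dscam4 AAACA: tttaaaatccAAACAtaaaaaatgt
Dscam3 AAACA: ttggataaacAAACAaggccggata

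Per exon length, Nrx-1, the presynaptic neurexin, was the most abundant member and Nlg1 the least in both tissues. In basal control brains Nrx-1 averaged 79.4 ± 13 RPKM (CPM per kilobase of exon; SD, n = 6), followed by Dscam2 at 37.9 ± 6.72, Nlg2 at 33.7 ± 5.52 and Dscam4 at 28.2 ± 4.43 RPKM. Nlg3 (22.3 ± 2.62), Nrx-IV (21.6 ± 2.31) and Dscam3 (19.4 ± 3.24 RPKM) came next. These neighbours did not differ beyond their spread, Nlg3 being above Nrx-IV in 4 of 6 libraries and Nrx-IV above Dscam3 in 5 of 6. Nlg4, a neuroligin linked to inhibitory signalling in sleep-regulating neurons, had 14.6 ± 1.80 RPKM, Dscam1 10.2 ± 2.19 RPKM and Nlg1 0.241 ± 0.151 RPKM. Dscam1 (FBgn0033159, on chromosome arm 2R, minus strand) has 26496 exon bases over 75 annotated transcripts and shares 1021 of them with antisense RNAs, whose reads cannot be told apart from its own where counting does not use strand. Its RPKM were divided by all these exon bases, which are not all in 1 transcript, so its low rank in both tissues depends on that divisor. In CPM, its median in these brains was 291, against 507 for Dscam2 and 198 for Nlg2. The other neighbours kept their order in all 6 libraries, although only Nrx-1 and Dscam2, and Dscam1 and Nlg1, had ranges that did not overlap. In basal control head inputs the order was Nrx-1 (44.8 ± 7.08 RPKM, n = 5), Nlg2 (27.6 ± 2.84), Dscam2 (19.5 ± 2.95), Dscam4 (19.4 ± 2.62), Nrx-IV (18.8 ± 2.61), Dscam3 (12.3 ± 2.24), Nlg3 (10.6 ± 1.87), Nlg4 (7.92 ± 0.940), Dscam1 (5.67 ± 0.935) and Nlg1 (2.25 ± 0.515 RPKM). Dscam2, Dscam4 and Nrx-IV did not differ beyond their spread there, nor did Dscam3 and Nlg3, each pair of neighbours keeping its order in 3 of 5 libraries.

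**Figure D1:**
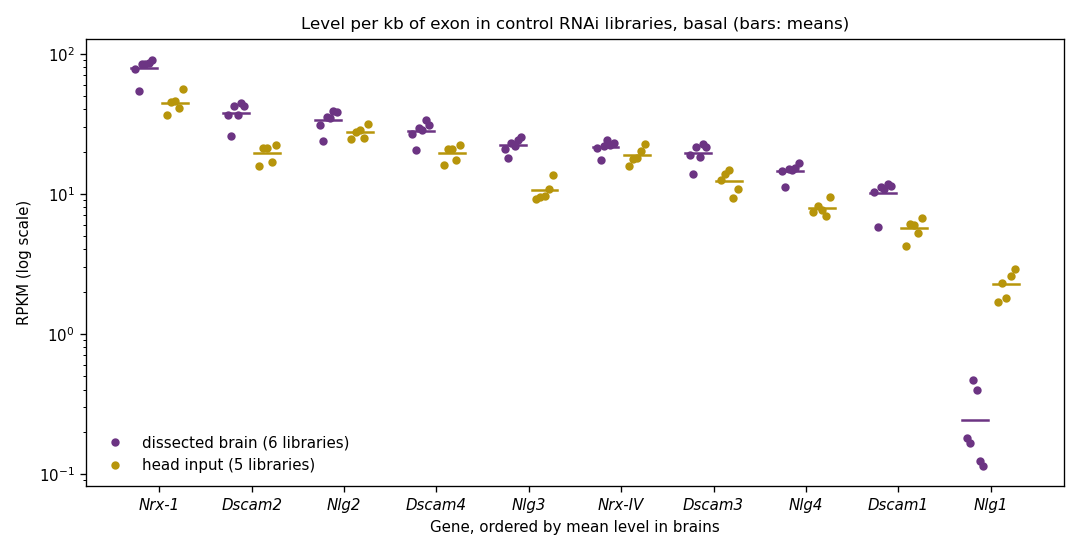
Levels of the 10 genes in basal control brains (n = 6) and basal control head inputs (n = 5), in RPKM on a log axis, with 1 point per library and the mean. Nrx-1 is highest in both tissues, and Nlg1, at 0.241 RPKM in brains and 2.25 RPKM in head inputs, is the only gene that is lower in brains.

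Setting brains against head inputs, 9 members were higher in the brain and 1 was lower. The background was 33.3% of genes higher and 37.4% lower. Nlg3 differed most among those that were higher, by 1.57 ± 0.14 on the log2 scale (SE, adjusted p = 1.9e-06, edgeR), followed by Dscam2 (1.46 ± 0.16), Nlg4 (1.38 ± 0.12), Dscam1 (1.34 ± 0.19), Nrx-1 (1.33 ± 0.16), Dscam3 (1.17 ± 0.15), Dscam4 (1.04 ± 0.14), Nlg2 (0.79 ± 0.13) and Nrx-IV (0.70 ± 0.12). Nlg1, which acts in muscle at the neuromuscular junction, was at 0.865 to 3.56 CPM in brains and 8.84 to 15.7 CPM in head inputs, a log2 difference of -2.73 ± 0.38. The summed level of 5 muscle genes (Mhc, Act88F, up, bt and Tm2), none at 0, was 60.0 to 344 CPM in the same brains and 2290 to 5454 CPM in the head inputs, each scaled within its tissue. Act88F alone of the 5 was higher in brains, with means of 24.7 CPM over the brain libraries and 9.59 CPM over the head inputs. The muscle sum was lower in brains, as Nlg1 was. Among basal control brains the 2 did not always rank alike. Nlg1, scaled within brains, was at 2.38 CPM beside a sum of 133 CPM in replicate 4, and at 1.08 beside 147 CPM in replicate 1. The part of muscle RNA in the Nlg1 difference was not tested. The 5 photoreceptor markers summed to 23581 to 38907 CPM in the brains and 16631 to 21217 CPM in the head inputs. Of these, ninaC (means of 2887 and 3221 CPM over all brain and input libraries) and trp (2657 and 2658 CPM) were not higher in brains. The part of photoreceptor RNA in the member differences was not tested. No member's range overlapped between the tissues, but overlap was not counted over all genes, of which 70.7% were called in this comparison. Brain and head libraries came from different kits, so tissue and kit cannot be told apart. The shift of the median gene under library size alone was -0.59, a scaling under which no member changed direction but the calls of Nlg2 (0.24, adjusted p = 0.0784) and Nrx-IV (0.16, 0.128) were lost.

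In control heads at basal conditions, the m6A IP over input test called each of the 10 members for either antibody, 9 higher in IP and Nrx-IV lower, although under library size alone Dscam4 turned below 0 with NEB and lost its call with SYS (0.055, adjusted p = 0.234). With SYS 37.4% of genes tested were higher in IP and 41.7% lower, and with NEB 40.2% and 46.6%. The neuroligins led. Nlg4 had log2 IP over input ratios of 1.69 and 1.67 in the SYS pools (fitted 1.66 ± 0.055, adjusted p = 1.9e-193, edgeR) and of 2.84, 2.59 and 3.15 in the NEB pools (2.89 ± 0.11). Nlg2, a neuroligin of both sides of the neuromuscular synapse, had 1.28 and 1.32 in the SYS pools and 2.61, 2.65 and 3.14 in the NEB pools. The ratios of these genes were similar from pool to pool. With 2 pools, the SYS p-values rest mainly on variance pooled over genes. Without the pairing of IP and input, SYS called 4 of the 10 members. For each of the 10 members the fitted log2 difference was larger in size with NEB than with SYS, with the smallest gap for Dscam4 (0.35 ± 0.079 and 0.30 ± 0.046). The antibodies were not tested against each other, since their libraries were scaled separately.

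Nlg3, which acts in larval motor neuron terminals, followed with 0.75 ± 0.052 (SYS) and 1.94 ± 0.094 (NEB), and Nlg1 with 0.53 ± 0.088 and 1.76 ± 0.13. Nrx-1 reached 0.49 ± 0.038 and 1.60 ± 0.096. Among the Dscams, the values with SYS and NEB were 0.42 ± 0.045 and 1.10 ± 0.10 for Dscam1, 0.52 ± 0.040 and 1.14 ± 0.089 for Dscam2, a receptor of axon tiling in the optic lobe, and 0.35 ± 0.053 and 1.16 ± 0.085 for Dscam3. Nrx-IV went the other way, with per-pool log2 ratios of -0.94 and -1.01 (SYS) and -2.02, -2.14 and -2.50 (NEB), the NEB ratios resting on 154, 157 and 66 IP counts. The median log2 difference over the members was 0.51 with SYS and 1.38 with NEB, beside -0.073 and -0.18 over all genes tested. Scaling by library size alone moved the median gene to -0.32 with SYS and -0.85 with NEB, and under it Dscam4 with NEB was at -0.33 (0.53 above that median), while no other member changed direction in control heads.

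**Figure D2:**
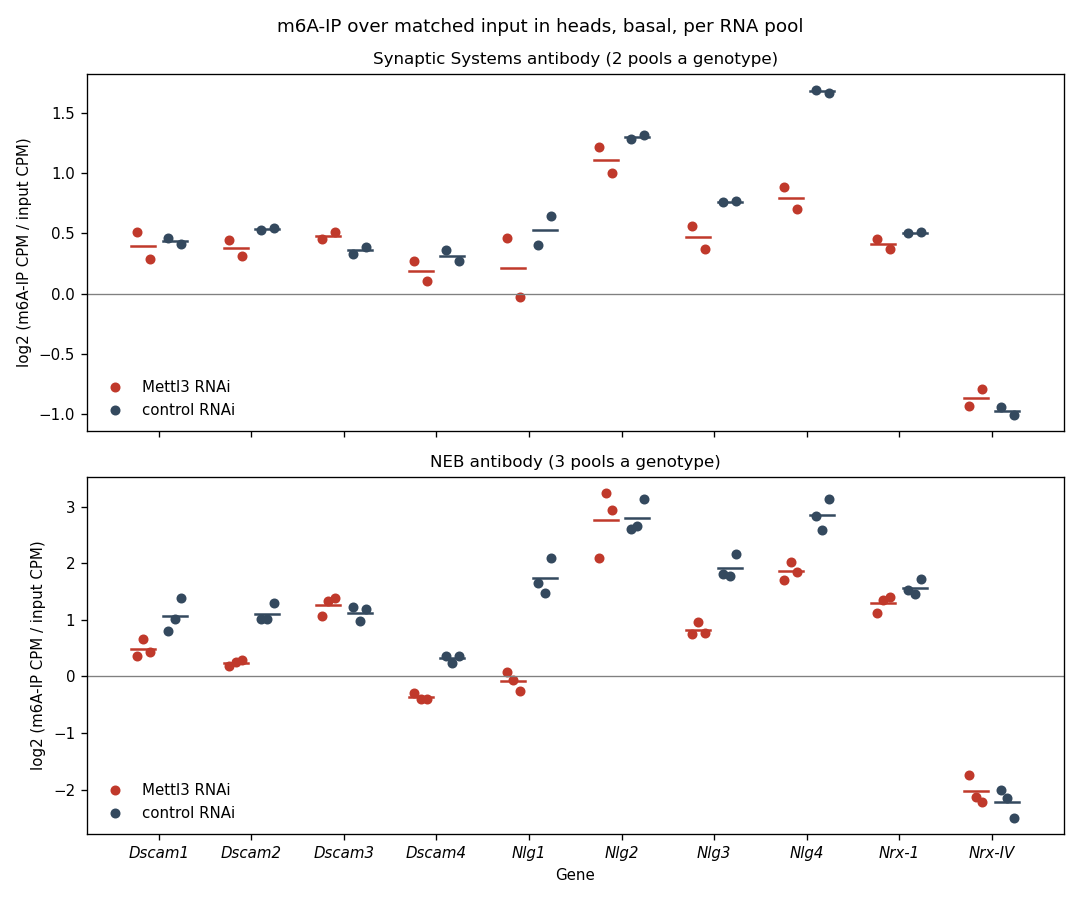
Log2 ratio of m6A IP over input for each of the 10 genes in basal heads, with 1 point per RNA pool, Mettl3 RNAi left of control RNAi, for the SYS and NEB antibodies. Nlg4 and Nlg2 reach the highest ratios (2.84, 2.59 and 3.15 for Nlg4 in control NEB pools) and Nrx-IV stays below 0 in every pool, while the Dscam4 NEB ratios are below 0 in Mettl3 RNAi (-0.30, -0.40 and -0.39) and above 0 in control, where library size alone gives a fitted -0.33.

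The genes that work with these molecules, taken from lists written from general knowledge, gave a mixed picture in the same test. Of 12 synaptic partners of neurexins and neuroligins, 10 were higher in IP with SYS and 11 with NEB (medians 0.66 and 1.66), beside 37.4% and 40.2% of all genes, of which X11L and Ten-m with NEB were below 0 under library size alone. The higher genes included the receptor phosphatase Lar (1.04 ± 0.057 and 2.59 ± 0.18), X11Lbeta (0.93 and 2.33) and the scaffold gene Magi (0.91 and 2.07). Of 8 partners of Dscam signalling, 5 and 6 were higher (medians 0.39 and 1.22), and with SYS SH3PX1 of this list (-0.24) and RhoGAP100F of the synaptic list (-0.10) were lower. The higher ones were led by the translational regulator Fmr1 (1.03 and 2.45), the kinase Abl (0.92 and 2.15) and the netrin receptor gene fra (0.68 and 2.07). Of 15 septate junction genes, the setting of Nrx-IV, 10 were lower in IP for SYS and 9 for NEB, while 4 were higher for each (medians -0.28 and -1.24), beside 41.7% and 46.6% of all genes lower, of which Atpalpha with SYS and nrv1 with NEB were below 0 under library size alone. Mcr was lower with both (-1.05 and -2.43), Gli with SYS (-1.01), and the claudins sinu and kune with NEB (-2.86 and -2.29), whereas cora, the 4.1 protein that binds Nrx-IV, was higher with SYS (0.98 ± 0.038).

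The IP signal left after Mettl3 RNAi varied between members and, for Dscam4, between antibodies. In basal Mettl3 RNAi heads 9 of the 10 still differed between IP and input with SYS, 8 higher and 1 lower (34.0% of genes were higher and 37.4% lower), and with NEB 7 were higher and 2 lower (37.2% and 41.7%). Nlg1 did not pass with either antibody (0.18 ± 0.11 with SYS and 0.12 ± 0.24 with NEB, adjusted p = 0.144 and 0.665, edgeR). Dscam4 was still higher in IP with SYS (pools at 0.27 and 0.10). With NEB it was at -0.24 ± 0.092 (adjusted p = 0.0328), a call lost without Mettl3 RNAi pool 2 (adjusted p = 0.184) or pool 3 (0.128). Under library size alone, Dscam4 with SYS (-0.040), Dscam1 with NEB (-0.15) and Dscam2 with NEB (-0.40) changed direction, against medians of all genes of -0.26 with SYS and -0.87 with NEB.

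To ask whether the IP signal depended on Mettl3, the log2 IP over input of Mettl3 RNAi heads was set against that of control heads, each IP being paired with the input of its pool. Nlg4 was lower in all 4 tests, 2 antibodies at basal and after HS. Its NEB ratios at basal were 1.70, 2.03 and 1.85 in Mettl3 RNAi pools, against 2.84, 2.59 and 3.15 in control pools, a difference of -1.0 ± 0.15 (adjusted p = 0.000144, edgeR). With SYS they were 0.89 and 0.70, against 1.69 and 1.67 in control pools (-0.89 ± 0.087, adjusted p = 1.0e-05). After HS they were 2.03, 1.67 and 1.57 in Mettl3 RNAi pools and 2.87, 3.47 and 3.14 in control pools with NEB (-1.41 ± 0.18), and 1.15 and 0.78 against 1.80 and 1.93 with SYS (-0.90 ± 0.13). The groups did not overlap in any of these 4 sets of pools, though overlap was not counted over all genes. With SYS at basal, members that did not pass also separated, such as Dscam2 (0.45 and 0.32 against 0.53 and 0.54). The Nlg4 call was kept when any single pool was left out.

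With NEB at basal, 6 of 10 members were lower in Mettl3 RNAi, beside 13.6% of genes tested, and after HS 7 of 10, beside 13.0%. No called member changed direction under library size alone in any of the 4 tests, and each NEB call was kept under it. Nlg3 differed by -1.09 ± 0.14 at basal, with ratios of 0.74, 0.97 and 0.77 in Mettl3 RNAi pools and 1.81, 1.78 and 2.16 in control pools, and by -1.27 ± 0.19 after HS. Nlg1 had ratios of 0.082, -0.059 and -0.26 in basal Mettl3 RNAi pools and 1.65, 1.48 and 2.09 in control pools (-1.74 ± 0.25). These rest on few reads, the IP counts being 64, 9 and 9 in Mettl3 RNAi pools and 246, 293 and 186 in control pools, and after HS the Nlg1 difference of -1.12 ± 0.25 was lost without Mettl3 RNAi pool 1 (adjusted p = 0.0552). Dscam2 had 0.18, 0.25 and 0.29 in basal Mettl3 RNAi pools and 1.02, 1.02 and 1.29 in control pools (-0.87 ± 0.13, and -1.02 ± 0.16 after HS).

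Dscam4 had -0.30, -0.40 and -0.39 in basal Mettl3 RNAi pools and 0.36, 0.25 and 0.37 in control pools (-0.67 ± 0.12, and -0.68 ± 0.13 after HS). Dscam1 had 0.37, 0.66 and 0.44 in basal Mettl3 RNAi pools and 0.81, 1.01 and 1.39 in control pools (-0.58 ± 0.15, adjusted p = 0.0131), a call lost without Mettl3 RNAi pool 3 (adjusted p = 0.0512) or control pool 3 (0.0566). Its groups did not overlap at basal, a trait not counted over all genes, and after HS the difference was -0.85 ± 0.16. Nrx-1 passed after HS only (-0.54 ± 0.14, adjusted p = 0.0178) and was lost without Mettl3 RNAi pool 2 (0.0897), control pool 2 (0.0789) or control pool 3 (0.0683). At basal its difference was -0.28 ± 0.15.

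With SYS, fewer members passed. At basal Nlg4 and Nlg3 were lower, beside 9.02% of genes tested, and after HS Nlg2, Nlg3, Nlg4 and Nrx-1 were lower, beside 10.5%. Nlg3 differed by -0.30 ± 0.084 at basal (adjusted p = 0.0311), which was lost without Mettl3 RNAi pool 2 (0.166), control pool 1 (0.118) or control pool 2 (0.224). After HS it differed by -0.45 ± 0.11, a call lost without Mettl3 RNAi pool 2 (0.0536) or control pool 2 (0.112). The HS values were -0.35 ± 0.11 for Nlg2 and -0.27 ± 0.079 for Nrx-1, and both calls were lost without any of Mettl3 RNAi pool 2, control pool 1 and control pool 2, with DESeq2 (adjusted p = 0.107 and 0.109) and under library size alone (-0.27 and -0.18, adjusted p = 0.0669 and 0.110). A fit without the pairing of IP and input kept no SYS call, Nlg4 included (-0.89, adjusted p = 0.465, at basal).

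Dscam3 and Nrx-IV passed in none of the 4 tests, although Nrx-IV was higher in Mettl3 RNAi in the SYS HS test under library size alone (0.36, adjusted p = 0.0320) or without Mettl3 RNAi pool 1 (0.33, 0.0219), and Dscam3 in the NEB HS test without Mettl3 RNAi pool 3 (0.45, 0.0303). Dscam3 had NEB ratios of 1.06, 1.33 and 1.38 in basal Mettl3 RNAi pools and 1.22, 0.97 and 1.19 in control pools, and its 4 differences were 0.12 ± 0.084 (SYS basal), -0.098 ± 0.099 (SYS HS), 0.12 ± 0.13 (NEB basal) and 0.32 ± 0.15 (NEB HS). Those of Nrx-IV were 0.11 ± 0.089, 0.28 ± 0.10, 0.27 ± 0.19 and 0.10 ± 0.25. Nlg2 kept its NEB ratios, with 2.10, 3.25 and 2.94 in basal Mettl3 RNAi pools and 2.61, 2.65 and 3.14 in control pools, overlapping groups and a difference of -0.039 ± 0.24. The median over the members was -0.63 at basal and -0.76 after HS with NEB, beside 0.065 and 0.079 over all genes, and -0.14 and -0.26 with SYS, beside 0.063 and 0.042. The basal and HS tests used different pools, and whether they differ from each other in Mettl3 RNAi was not tested. Counts were summed over all exons of a gene, so a change confined to its 5′UTR was not tested.

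**Figure D3:**
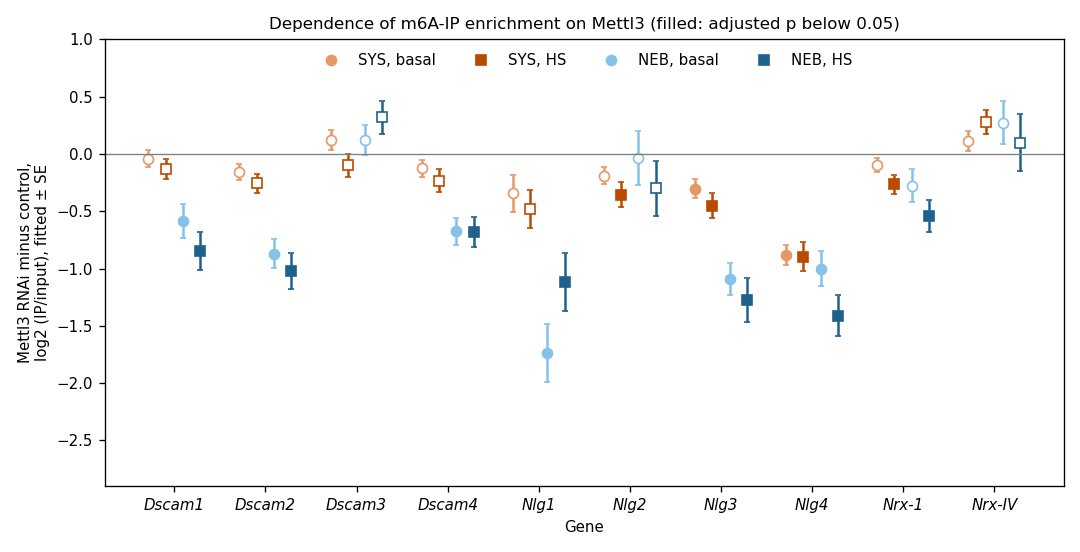
Difference in log2 IP over input, Mettl3 RNAi minus control RNAi, for each of the 10 genes at basal and after HS with the SYS and NEB antibodies (edgeR estimate with 1 SE). Nlg4 is below 0 in all 4 tests (-0.89, -0.90, -1.0 and -1.41), Nlg1 is lowest with NEB at basal (-1.74), and Dscam3 and Nrx-IV lie within 0.32 of 0.

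The partner lists in the NEB basal test held 3 of 8 Dscam partners lower (fra -1.60 ± 0.21, Abl -0.57 ± 0.13 and Pak -0.43 ± 0.14), 3 of 12 synaptic partners lower (the teneurin gene Ten-a -0.86 ± 0.14, Magi -0.66 ± 0.18 and dlg1 -0.56 ± 0.14), and 2 of 15 septate junction genes lower (Atpalpha -1.12 ± 0.18 and Nrg -0.46 ± 0.13), beside 13.6% of all genes, a share that the septate junction count is near. After HS with NEB the counts were 3, 4 and 1, beside 13.0% of genes. With SYS they were 1, 4 and 0 at basal, beside 9.02%, and 2, 5 and 2 after HS, beside 10.5%, when 1 septate junction gene was higher. No gene of the lists was higher in the other 3 tests, and no called gene of the lists changed direction under library size alone.

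HS did not move the IP signal of any member past the edgeR test in control heads. With edgeR 0 of 10 passed for either antibody, beside 1.67% of genes with SYS and 0.300% with NEB. Of the members, 4 with SYS and 0 with NEB had an unadjusted p under 0.05, and DESeq2 called 0 and 0. Nlg2 came nearest with SYS, with ratios of 1.52 and 1.58 in HS pools and 1.28 and 1.32 in basal pools (0.24 ± 0.065, adjusted p = 0.0545), and passed without the filter on low counts (0.26, 0.0101) or without basal control pool 2 (0.29, 0.0330). With NEB its HS ratios of 2.7, 3.58 and 3.20 overlapped the basal 2.61, 2.65 and 3.14 (0.37 ± 0.22).

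The input libraries of the same heads give the RNA levels. Mettl3 RNAi against control at basal gave 0 calls with edgeR among the members, beside 4.13% of genes, with 2 at an unadjusted p under 0.05 and 0 by DESeq2. With the shared pool numbers as a block, which called 14.2% of genes, 3 members passed, Dscam1 (0.35 ± 0.057, adjusted p = 0.00424), Dscam2 (0.23, 0.0218) and Nlg4 (0.23, 0.0420). Taken without this pairing, all 3 ranges overlapped, with Dscam1 at 153 to 217 CPM in Mettl3 RNAi and 113 to 177 CPM in control. Within the inputs of the SYS pools and within those of the NEB pools, 0 members passed, the Dscam1 differences being 0.43 ± 0.14 and 0.28 ± 0.14.

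In control head inputs after HS, Nlg1 was higher (0.41 ± 0.12, adjusted p = 0.0207) and Nlg3 (-0.31 ± 0.088, 0.0193) and Nlg4 (-0.26 ± 0.084, 0.0325) were lower, beside 16.2% of genes higher and 19.6% lower. Nlg3 was at 51.2 to 71.8 CPM after HS and 60.5 to 91.0 CPM at basal, and the ranges of all members overlapped. Library size alone lost the Nlg1 call (0.16) and moved the median gene to -0.23. The inputs of the NEB pools alone called 8 members, with Dscam1 (0.45), Dscam2 (0.37), Dscam3 (0.39), Dscam4 (0.34) and Nrx-1 (0.27) higher as well. The inputs of the SYS pools alone called 0 with edgeR and gave differences of -0.020, -0.091, -0.14, -0.051 and -0.14 for these 5 genes, so their direction was not shared by both sets. For Nlg1, Nlg3 and Nlg4 the SYS pools gave 0.42, -0.39 and -0.21, and the NEB pools 0.37, -0.29 and -0.33. The Nlg4 call was lost in 7 of 10 fits that left out 1 library, and the Nlg1 call in 4.

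In brains, Nlg2 was the member with the largest called difference with Mettl3 RNAi. After HS it was at 143, 159 and 176 CPM (lowest, median and highest of 6) in Mettl3 RNAi brains and at 193, 205 and 223 CPM in control brains. The groups did not overlap, a trait not counted over all genes. The difference was -0.39 ± 0.060 (adjusted p = 0.00221, edgeR, beside 2.72% of genes lower), with -0.34 ± 0.068 in replicates 1 to 3 and -0.42 ± 0.082 in replicates 4 to 6 (adjusted p = 0.0526). At 24 h of recovery it was at 164, 162 and 157 CPM in Mettl3 RNAi brains, against 209, 195 and 191 CPM in control brains (-0.29 ± 0.039, adjusted p = 0.00459). At 6 h it was at 167, 138 and 154 CPM in Mettl3 RNAi brains, against 191 and 182 CPM in control brains, and the difference of -0.29 ± 0.078 did not pass (adjusted p = 0.118). These groups did not overlap, and neither did those of Dscam1, Dscam4, Nlg4 and Nrx-IV, which did not pass either.

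At basal, Nlg2 was at 135, 152 and 162 CPM in Mettl3 RNAi brains and 135, 198 and 218 CPM in control brains. The difference of -0.34 ± 0.10 did not pass with edgeR (adjusted p = 0.109) and passed with DESeq2 (0.0408), and the overlap came from control replicate 2. Without that library it was -0.42 ± 0.064 (adjusted p = 0.00821). In basal head inputs the Nlg2 difference was -0.16 ± 0.075 (adjusted p = 0.297). These comparisons share no libraries with one another.

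Among the other members, Dscam1 and Dscam3 passed in some brain tests of Mettl3 RNAi. At basal 0 of the 10 passed with edgeR (2.19% of genes did), 1 had an unadjusted p under 0.05 and DESeq2 called 1, Nlg2. At 6 h 0 passed (3.0% of genes did), with 4 at an unadjusted p under 0.05 and 1, Dscam1, by DESeq2. At 24 h Dscam1 was higher (0.10 ± 0.025, adjusted p = 0.0425) and Dscam3 lower (-0.17 ± 0.041, 0.0451), beside 5.33% of genes higher and 3.86% lower. Leaving out 1 library lost the Dscam1 call in 5 of 6 fits and the Dscam3 call in 6 of 6, and kept that of Nlg2 in 6 of 6. After HS Dscam1 did not pass with edgeR but did with DESeq2 (0.12, adjusted p = 0.0139) and under library size alone (0.18, 0.0146), and Dscam3 passed in replicates 1 to 3 alone (-0.22, 0.0227). The block on replicate number added Dscam1 (0.12 ± 0.026), Dscam3 (-0.19 ± 0.037) and Dscam4 (0.15 ± 0.038), though the numbers were not shown to pair the samples. Of the partner lists, Ten-a (-0.25 ± 0.055) and CASK (-0.16 ± 0.041), which scaffolds neurexin, were lower after HS.

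**Figure D4:**
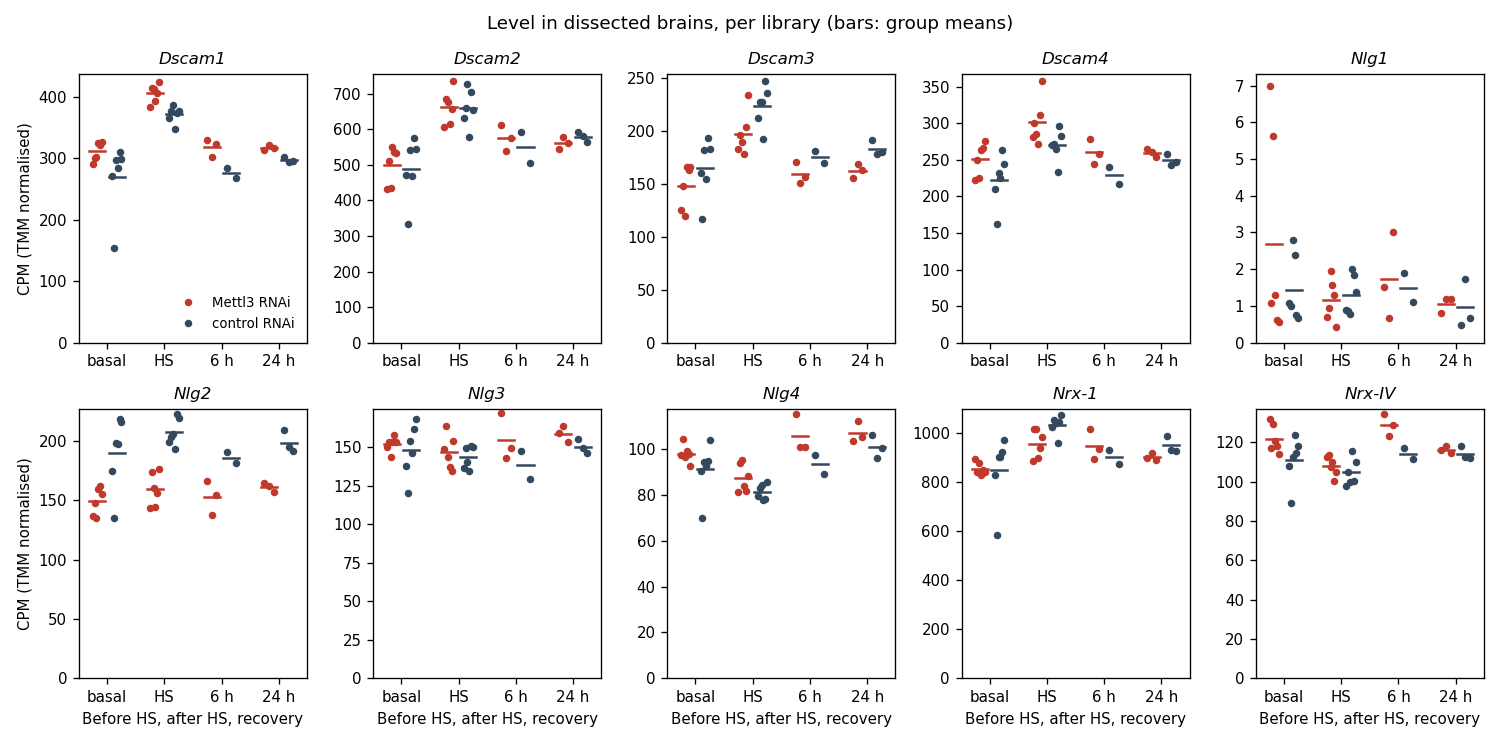
Levels in brains of the Mettl3 experiment in CPM, basal, after HS and at 6 h and 24 h of recovery, with 1 point per library and Mettl3 RNAi left of control RNAi. For Nlg2 the Mettl3 RNAi libraries lie below the control libraries after HS (143 to 176 against 193 to 223 CPM), at 6 h and at 24 h, and at basal they overlap through control replicate 2. Other members also separate at 6 h (Dscam1, Dscam4, Nlg4 and Nrx-IV) and at 24 h (Dscam1, Dscam3 and Nrx-1).

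After HS, the 4 Dscams and Nrx-1 were higher in control brains, beside 19.7% of genes, whereas under library size alone none of these 5 calls was kept and Dscam4 (-0.073) and Nrx-1 (-0.068) turned below 0. Dscam1 was at 349, 375 and 387 CPM (lowest, median and highest of 6) after HS and 154, 291 and 310 CPM at basal (0.51 ± 0.13, adjusted p = 0.00639, edgeR). Dscam2 was at 578, 657 and 727 CPM after HS and 335, 507 and 575 CPM at basal (0.48 ± 0.11), and neither gene's ranges overlapped. Overlap was not counted over all genes, of which 48.9% were called in this comparison. Dscam3 (0.49 ± 0.11), Dscam4 (0.32 ± 0.098) and Nrx-1 (0.33 ± 0.10) had overlapping ranges, Nrx-1 being at 956 to 1071 CPM after HS and 582 to 969 CPM at basal. Replicates 4 to 6 alone lost the calls of Dscam4 (0.19, adjusted p = 0.183) and Nrx-1 (0.18, 0.0753), and Nrx-1 was also lost without the filter on low counts (0.28, 0.0545). The neuroligins and Nrx-IV did not pass, with -0.082 ± 0.40 for Nlg1, 0.17 ± 0.098 for Nlg2, 0.0016 ± 0.072 for Nlg3, -0.12 ± 0.074 for Nlg4 and -0.038 ± 0.073 for Nrx-IV.

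Without basal control replicate 2 the 5 higher members were all kept, at 0.39 for Dscam1, 0.39 for Dscam2, 0.40 for Dscam3, 0.24 for Dscam4 and 0.24 for Nrx-1, and Nlg4 was then lower (-0.18 ± 0.043, adjusted p = 0.00395). Library size alone moved the median gene to -0.41 and made Nlg2 (-0.22), Nlg3 (-0.39), Nlg4 (-0.51) and Nrx-IV (-0.43) lower past the test, while relative to that median the 5 members were 0.53, 0.50, 0.51, 0.34 and 0.35 higher in the order given. The 10 most abundant genes took 18.4% to 21.3% of counts after HS and 14.7% to 17.2% at basal. The 5 neuronal markers, none at 0, summed to 9259 to 10590 CPM after HS and 5756 to 9063 CPM at basal, and the 5 glial markers to 4286 to 5257 CPM and 3508 to 4317 CPM, and their part in the Dscam and Nrx-1 differences was not tested.

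In Mettl3 RNAi brains the same 5 members were higher after HS, beside 18.3% of genes, with Dscam1 at 0.42 ± 0.037, Dscam2 at 0.45 ± 0.071, Dscam3 at 0.46 ± 0.094, Dscam4 at 0.31 ± 0.074 and Nrx-1 at 0.20 ± 0.046, whereas library size alone called none of them higher and put Dscam4 at -0.042 and Nrx-1 at -0.15 against a median of -0.39. Dscam1 was at 383, 409 and 425 CPM after HS and 292, 312 and 326 CPM at basal, and Dscam1, Dscam2 and Dscam3 did not overlap. Overlap was again not counted over all genes, of which 46.5% were called. Nrx-IV was lower (-0.14 ± 0.049, adjusted p = 0.0389, beside 28.2% of genes lower), at 100 to 113 CPM after HS and 114 to 132 CPM at basal, a call lost with DESeq2 (-0.085, adjusted p = 0.131), in replicates 1 to 3 (0.0705) and in replicates 4 to 6 (0.116). The HS responses of the 2 genotypes were compared in 1 model. With edgeR 0 of 10503 genes passed (0%), 627 had an unadjusted p under 0.05 and DESeq2 called 10, and of the members 0 were under 0.05 and DESeq2 called 0. The estimated differences were -0.085 ± 0.14 for Dscam1, -0.025 ± 0.14 for Dscam2, -0.023 ± 0.15 for Dscam3, -0.011 ± 0.13 for Dscam4 and -0.12 ± 0.11 for Nrx-1. Without basal control replicate 2 those of the Dscams turned above 0 (0.033, 0.063, 0.056 and 0.065 for Dscam1 to Dscam4) and that of Nrx-1 was -0.033, none past the test.

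**Figure D5:**
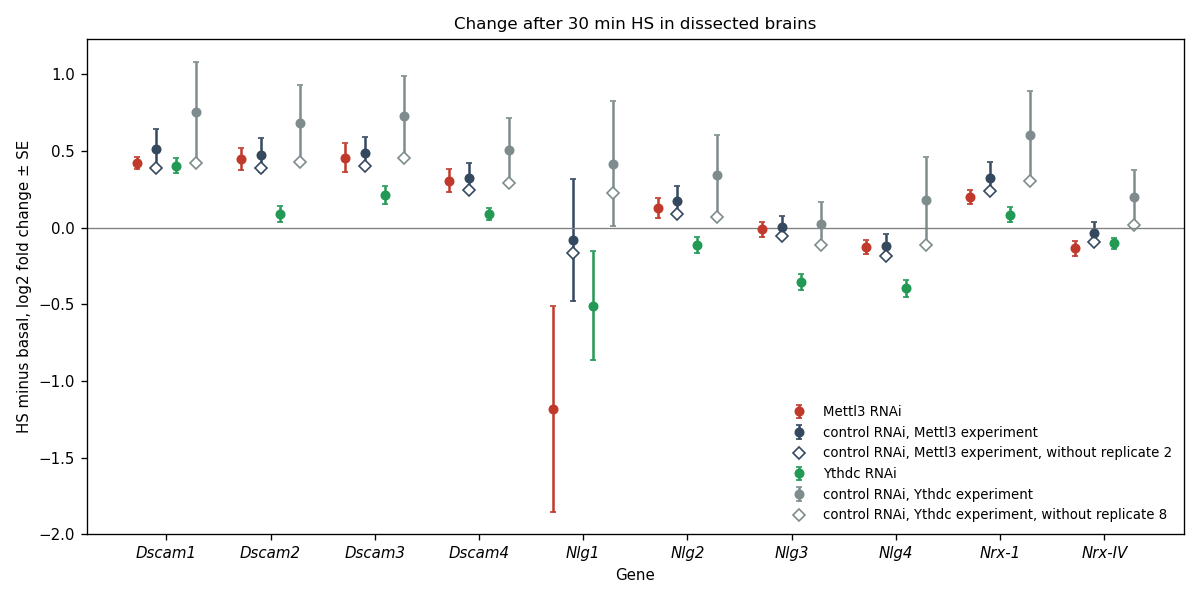
Log2 difference between HS and basal brains for each of the 10 genes (edgeR estimate with 1 SE) in Mettl3 RNAi and control RNAi brains of the Mettl3 experiment and in Ythdc RNAi and control RNAi brains of the Ythdc experiment, with open diamonds for the control fits without basal replicate 2 or 8. The Dscams and Nrx-1 lie above 0 in all 4 sets, from 0.086 to 0.76, although library size alone puts Dscam4 and Nrx-1 below 0 in the Mettl3 experiment and Dscam1, Dscam2, Dscam3, Dscam4 and Nrx-1 below 0 in Ythdc RNAi brains.

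Among the partners in control brains, beside the 19.7% of all genes that were higher, 7 of 12 synaptic genes were higher after HS and none lower (median 0.31, with Ten-a 0.46 ± 0.10, Magi 0.44 ± 0.11 and dlg1 0.42 ± 0.082), beside a median of -0.019 over all genes, and 3 of the 7 (CASK, Spn and Cirl) turned below 0 under library size alone. Of the 8 Dscam partners 2 were lower, fra (-0.36 ± 0.10) and Fmr1 (-0.28 ± 0.061), and none was higher, beside 29.2% of all genes lower. The septate junction list was split, with 7 higher and 4 lower of 15, where cora, Atpalpha and vari turned below 0 under library size alone. Its largest differences were those of sinu (-0.83 ± 0.15), crok (-0.60 ± 0.17) and Tsf2 (-0.54 ± 0.11). In Mettl3 RNAi brains 8 synaptic genes were higher, 3 Dscam partners were lower, and 3 septate junction genes were higher and 4 lower, where 7 of the synaptic genes (all but Magi) and 2 of the septate junction genes (Nrg and cora) turned below 0 under library size alone.

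During recovery no member passed against basal brains of replicates 1 to 3 in either genotype. In Mettl3 RNAi brains edgeR called 0 of the 10 at 6 h and 0 at 24 h (2.04% and 0% of genes), with 2 and 6 members at an unadjusted p under 0.05 and 1 and 4 by DESeq2. In control brains it called 0 and 0 (6.81% and 0.235%), with 0 and 2 members under 0.05 and 0 and 0 by DESeq2. The Mettl3 RNAi result rested on basal replicate 2. Without it 2 members passed at 6 h and 6 at 24 h. At 24 h these were Dscam2 (0.36), Dscam3 (0.40), Dscam4 (0.20) and Nlg2 (0.24) higher and Nlg1 (-2.58) and Nrx-IV (-0.18) lower, and the count over all genes at 24 h was 3100, against 0 with it. Nlg1 was at 7.0, 1.09 and 5.62 CPM in basal Mettl3 RNAi replicates 1 to 3, where the muscle markers summed to 1034, 169 and 238 CPM, and at 0.57 to 1.29 CPM in replicates 4 to 6, where they summed to 37.8 to 54.6 CPM. The part of muscle RNA in the Nlg1 values was not tested.

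In the Ythdc experiment, no member passed between Ythdc RNAi and control brains. At basal edgeR called 0 (3.89% of genes), with 2 at an unadjusted p under 0.05 and 0 by DESeq2, and after HS 0 (5.30%), with 3 and 0. Basal values of all 10 members were above those of the control group by 0.26 to 0.65, but without control replicate 8 the differences ran from -0.014 (Nlg2) and 0.055 (Dscam3) to 0.46 (Nlg1). In that fit Dscam2 (0.39, adjusted p = 0.0238) and Nlg4 (0.34, 0.0311) were higher. Without control HS replicate 9, Dscam3 (-0.21, 0.0462) and Nlg2 (-0.23, 0.0354) were lower in Ythdc RNAi brains after HS, Nlg2 being at 111 to 119 CPM in Ythdc RNAi brains and 117 to 136 CPM in control brains with all libraries.

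HS against basal in Ythdc RNAi brains gave 2 members higher, Dscam1 (0.40 ± 0.049) and Dscam3 (0.21 ± 0.057), which library size alone put at -0.0062 and -0.20 against a median of -0.42, beside 25.8% of genes, and 3 lower, Nlg3 (-0.35 ± 0.054), Nlg4 (-0.40 ± 0.057) and Nrx-IV (-0.10 ± 0.034), beside 32.8%. Nlg4 was at 49.4, 52.0 and 53.1 CPM (ordered) after HS and 63.6, 65.4 and 73.1 CPM at basal, and Nlg3 at 63.7, 63.9 and 67.2 CPM after HS and 78.4, 79.7 and 89.4 CPM at basal, in both genes without overlap. Overlap was not counted over all genes, of which 58.6% were called here. In the control brains of that experiment edgeR called 0 members (18.7% of genes), with 3 at an unadjusted p under 0.05 and 3 by DESeq2. Without replicate 8 it called 5, Dscam1 (0.43), Dscam2 (0.43), Dscam3 (0.46), Dscam4 (0.29) and Nrx-1 (0.31), each higher after HS. These 5 genes were above 0 under library size alone (0.18 to 0.42) with all libraries, replicate 8 included. That scaling moved the median gene to -0.33 and was not fitted without replicate 8.

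Over the means of the 12 brain groups, 9 of the members had a gene of very similar pattern among 6254 genes with a mean of at least 10 CPM (Pearson's r of log2(CPM + 1), as a description), and Nlg1 was under that level. Nrx-1 and Dscam2 were both most like Rbp, the active zone gene RIM-binding protein (r = 0.998 and 0.996), Dscam1 was most like the acetylcholine receptor subunit gene nAChRalpha4 (0.994), Dscam4 like Dys (0.994), Nlg4 like robo1 (0.998), Nlg3 like CycT (0.997), Nrx-IV like AP-2alpha (0.986), Nlg2 like CG34353 (0.984) and Dscam3 like Axn (0.984). The groups of the 2 experiments were scaled separately and the members were lower in the Ythdc experiment, which the points share. Between members r was highest for Dscam2 and Nrx-1 (0.993) and lowest for Dscam3 and Nlg1 (0.307).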

How the data were processed

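The deposited values are counts of reads per gene, 1 column per library, which the authors made from trimmed reads (Trim Galore) mapped with STAR 2.7.3a to dm6 and counted over exons with a union rule. Whether counting used strand is not stated. The kit was a stranded mRNA kit for brains and a total RNA kit for head IP and input. No column was left out.

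Each comparison was fitted with edgeR 4.0.16 (R 4.3.3) on its own libraries, with trimmed mean (TMM) scaling, filterByExpr (minimum count 10), quasi-likelihood tests and Benjamini-Hochberg adjustment over all genes tested. A call is an adjusted p under 0.05. The filter kept all 10 members in every fit. SE is the log2 difference divided by the square root of F. IP fits carry the RNA pool as a block. CPM are TMM-scaled within a set of libraries, and RPKM divide them by union exon length from Ensembl release 115, which matched 16847 of 17562 symbols. The 10 genes are named in every comparison, plus up to 3 called genes per partner list. The members and lists were chosen with earlier results of these data known.

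Replicate numbers were not shown to mark shared flies. Deviations of same-numbered samples correlated over 0.1 in every pair for control brain HS against basal (6 pairs, r 0.279 to 0.574) and for head inputs of Mettl3 RNAi against control (5 pairs, r 0.141 to 0.628), which were read as paired. In the control brain comparison 6 of 12 samples correlated best with their own number. For HS in Mettl3 RNAi brains, not read as paired, it was 5 of 12. The 2 SYS pairs have the same r (0.628), since deviations within a group of 2 libraries mirror each other. The main fits of both comparisons still carried no replicate block, which was run as an alternative. The labels do not say whether replicates were separate cultures or crosses. The paper's reporting summary states for its experiments in general that replicates came from crosses with different parents. It does not name single libraries, so p-values measure no more than the spread between these samples. In the SYS IP over input fits, with 2 pools per group, they rest mainly on variance pooled over genes. No libraries were duplicates (lowest chi-square 3.12 per gene). Alternatives were DESeq2 1.42.0, library size alone, no filter, the block, antibody or replicate subsets, and each replicate left out. The procedure was tested on simulated data.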

Additional observations from a re-analysis of the deposited data

Results flagged for a closer look

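Basal control brain replicate 2 lay far from the other 5 libraries of its group for a pair of members. Dscam1 was at 154 CPM there, against 271 CPM in the nearest library and 310 CPM at the other end of the range, and Nrx-1 was at 582 CPM, against 826 CPM and 969 CPM. Such gaps were looked for in 40 sets of 6 libraries, and chance gives about 1 in 20.

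The IP signal differed between the genotypes in 19 of the 40 tests of Mettl3 dependence (edgeR, adjusted over all genes), each difference in log2 IP over input being Mettl3 RNAi minus control. The tests repeat the same genes over 2 antibodies and 2 states. Of all genes, 9.02% and 10.5% were lower with SYS at basal and after HS, and 13.6% and 13.0% with NEB. With SYS at basal it was lower in Nlg3 (-0.30) and Nlg4 (-0.89), and after HS in Nlg2 (-0.35), Nlg3 (-0.45), Nlg4 (-0.90) and Nrx-1 (-0.27). Of these SYS calls, only those of Nlg4 were kept whichever pool was left out, and none was kept without the pairing of IP and input. With NEB at basal it was lower in Dscam1 (-0.58), Dscam2 (-0.87), Dscam4 (-0.67), Nlg1 (-1.74), Nlg3 (-1.09) and Nlg4 (-1.0). With NEB after HS it was lower in Dscam1 (-0.85), Dscam2 (-1.02), Dscam4 (-0.68), Nlg1 (-1.12), Nlg3 (-1.27), Nlg4 (-1.41) and Nrx-1 (-0.54).

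In the Ythdc experiment every Ythdc RNAi library moved down and every control library up after HS for 4 members. The mean log2 ratios were -0.53 in Ythdc RNAi and 0.39 in control for Nlg1, -0.10 and 0.32 for Nlg2, -0.39 and 0.16 for Nlg4, and -0.094 and 0.18 for Nrx-IV. Without basal control replicate 8 the control values were 0.19, 0.053, -0.13 and 0.0018 in the same order. At 24 h of recovery Nrx-IV was at -0.12 in Mettl3 RNAi brains and 0.14 in control brains. These opposite directions were seen over all libraries of each group, and the differences were not tested.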

How the results depend on the processing

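Calls of the members under other choices are given as counts of 10. DESeq2 called 1 in the SYS dependence at basal (2 with edgeR) and 2 after HS (4), 1 for Mettl3 RNAi against control brains at basal (0) and 2 after HS (1), 1 at 6 h (0), 1 at 6 h against basal (0) and 4 at 24 h against basal (0) in Mettl3 RNAi brains, and 3 for HS in control brains of the Ythdc experiment (0). Library size alone called 2 for Mettl3 RNAi against control brains after HS (1) and 1 at 24 h (3), 1 at 6 h against basal in Mettl3 RNAi (0) and 8 for HS in Ythdc RNAi (5). No filter called 1 for the HS change of SYS IP (0). SYS and NEB inputs alone called 0 and 8 for HS in head inputs (3), replicates 1 to 3 and 4 to 6 called 2 and 0 for Mettl3 RNAi after HS (1), and replicates 4 to 6 called 1 at basal (0). The other counts stayed within 1.5 times, 20 of 28 with DESeq2, 24 of 28 under library size alone and 27 of 28 without the filter. Below 0 under library size alone were Dscam4 in control NEB IP (-0.33) and Mettl3 RNAi SYS IP (-0.040), Dscam1 (-0.15) and Dscam2 (-0.40) in Mettl3 RNAi NEB IP, and, for HS, Dscam4 (-0.073), Nlg2 (-0.22), Nlg3 (-0.39) and Nrx-1 (-0.068) in control brains, Dscam4 (-0.042), Nlg2 (-0.22) and Nrx-1 (-0.15) in Mettl3 RNAi brains, and Dscam1 (-0.0062), Dscam2 (-0.32), Dscam3 (-0.20), Dscam4 (-0.32) and Nrx-1 (-0.32) in Ythdc RNAi brains. Leaving out 1 replicate gave 1 to 5 and 1 to 8 for SYS dependence at basal and after HS, 0 to 1 for the HS change of SYS IP, 1 to 6 for HS in head inputs, 0 to 2 at 6 h and 0 to 6 at 24 h in Mettl3 RNAi, 1 to 2 for Mettl3 RNAi at 24 h, 0 to 2 for Ythdc RNAi at basal and after HS, 0 to 5 for HS in the control and 3 to 7 in the Ythdc RNAi brains of that experiment. Without control basal replicate 2, chosen after seeing the data, Mettl3 RNAi at basal had 1 and HS in control brains 6. The cause was not tested. Precision is lowest in the NEB IP libraries of Mettl3 RNAi pools 2 and 3, with 9 Nlg1 counts each at basal.

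Over all genes, DESeq2 called 539 for Mettl3 RNAi brains at basal (edgeR 220), 1000 after HS (635) and 723 at 6 h (308), 1119 and 242 for control 6 h and 24 h against basal (692 and 23), 1219 and 654 for Mettl3 RNAi (206 and 0), 1289 and 1012 for Ythdc RNAi at basal and after HS (402 and 543), 721 and 766 in the SYS dependence tests (1084 and 1262), 100 for the HS change of SYS IP (174) and 646 for Mettl3 RNAi head inputs (414). No filter gave 1235 and 125 for control 6 h and 24 h, 49 and 519 for Mettl3 RNAi at 6 h against basal and control, and 416 and 56 for the HS change of SYS and NEB IP (174 and 30). Library size alone gave 326 and 13 for those, 726 for Mettl3 RNAi at 6 h and 4289 for HS in control brains of the Ythdc experiment (1936). Subsets gave 47 and 128 (replicates 1 to 3, 4 to 6) for Mettl3 RNAi at basal, 298 (4 to 6) after HS, 0 and 273 (SYS, NEB) for Mettl3 RNAi and 30 (SYS) for HS in head inputs (3582), and all 6 basal replicates gave 449 and 2 for control 6 h and 24 h. The higher share of calls under library size alone was 4.61% (40.4%), 5.73% (39.3%), 6.48% (27.9%) and 7.87% (44.0%) for HS in control, Mettl3 RNAi, Ythdc-experiment control and Ythdc RNAi brains, 7.64% (45.3%) in head inputs, 84.1% (57.0%) for Mettl3 RNAi after HS, 81.2% (56.6%) and 85.5% (43.7%) at 6 h in control and Mettl3 RNAi, 51.1% (61.6%) for Mettl3 RNAi head inputs, 17.8% (47.1%) for brain against head, 34.3% (47.3%), 30.3% (46.3%), 32.6% (47.6%) and 26.0% (47.2%) for control SYS and NEB and Mettl3 RNAi SYS and NEB IP, 34.2% (13.5%) and 44.0% (14.0%) for SYS dependence, and 34.0% (79.9%) for the HS change of SYS IP.

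Without the pool block, SYS IP over input in control heads had 4 members called (10 with it) and 4565 genes (8080), and SYS dependence 0 at basal (2) and 0 after HS (4), with 0 genes in both. The replicate block gave 3 for Mettl3 RNAi head inputs (0; 1421 genes, against 414), 4 for Mettl3 RNAi brains after HS (1; 1171 genes, against 635) and 1 at 24 h (3). It gave 130 genes for Mettl3 RNAi at basal, 5 at 24 h in control, 0 at 6 h in Mettl3 RNAi and 999 for HS in control brains of the Ythdc experiment, and changed the count of members by under 1.5 times in 10 of 13 fits. Outside the pairings accepted, same-numbered samples were not read as pairs. In HS head inputs 8 of 10 samples correlated best with their own number, as in the accepted head inputs of Mettl3 RNAi. Their r ran from 0.0741 to 0.148, so not every pair was over 0.1. In the other comparisons of 3 or more pairs, 0 to 5 of 6 or 12 samples correlated best with their own number. No paired analysis was possible for Ythdc RNAi against control because these groups share no numbers.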
